A study of Vitis vinifera with 27 samples.

Results

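ERF020 (VITVI18G02191) is 1 of the 35134 genes counted in latent buds of grapevine cv. Merlot, and its product is an ethylene-responsive transcription factor. The gene was chosen with these counts already known, for its higher count at node 2 than at nodes 5 and 10, so the comparison of node 2 with the other nodes is given as a description with no test. RNA was sequenced from buds of the basal node 2, the middle node 5 and the distal node 10 of shoots of field-grown vines grafted on Kober 5BB, with no treatment named. Each node was sampled at BBCH63 (flowering), BBCH77 (cluster closure) and BBCH90 (harvest), with 3 biological replicates in each of the 9 groups. Several buds from 1 node position were pooled for each replicate, so differences between single buds are not visible. All vines were of the same cultivar and rootstock, which limits the groups as a model of grapevine buds in general.

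ERFs belong to the AP2/ERF family of plant transcription factors, and they bind DNA through a single AP2/ERF domain. Ethylene is perceived by membrane receptors that, without the hormone, keep the kinase CTR1 active. With ethylene bound, EIN2 passes the signal on to the EIN3/EIL factors in the nucleus, which switch on a first set of ERF genes. Members of the family take part in responses to wounding, pathogens, cold and drought as well as in development, and many of them are also controlled by other hormones. In buds of woody plants, ethylene signalling has been linked to the entry into dormancy and the release from it.

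In the RefSeq annotation of the ASM3070453v1 assembly the protein listed for this gene by the study belongs to LOC100243187, a protein-coding gene on chromosome 18. The counts were made on another assembly, PN40024.v4, so no coordinates are given. The study also measured the gene by qPCR, at BBCH63 only, and reported that the qPCR and RNA-Seq patterns largely overlapped. Its designed primers are the only sequences of the gene used here. They are shown because they state which transcript a repeat measurement would amplify.
ERF020 forward primer: tttccgttcccagataacacactg
ERF020 reverse primer: atcacctccagtaaagcctaccatc
The forward primer has 24 bases and the reverse primer 25, with 45.8% and 48% of G and C. Whether they lie in an exon, a UTR or on both sides of an intron was not analysed here.

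The libraries held 34531620 to 53307172 counts. The study kept 24 of the 27 libraries to compare groups and left out replicate 3 of node 10 at each stage, and the same 24 were used here. The last column of the table, BBCH90 node 10 replicate 3, had the same count as BBCH63 node 2 replicate 2 at all 35134 genes, so these count as 1 library in the 24 libraries and in the 26 columns of the shifted labels. The fit of all 27 columns, named as such wherever it is used, holds 26 distinct libraries and has this column in BBCH90 node 10 as deposited. Across the 3000 most variable genes, 16 of the other 26 libraries correlated best with the remaining libraries of their own group under the deposited labels. When every column from BBCH63 node 5 replicate 1 on was given the label of the next column, 19 of 26 did, and the lowest correlation with the own group was 0.48, against -0.68 under the deposited labels. Genes are not independent replicates, so these correlations only describe the libraries. The -0.68 belongs to the library deposited as BBCH77 node 10 replicate 3, which had 0.86 with BBCH90 node 2. Under the shifted labels each library correlated best with a group of its own stage. The deposited labels cannot all be right, since the last column repeats a library of another group. Whether the shift by 1 column is the right correction was not settled from the counts. The comparison of node 2 with the other nodes is therefore given under the deposited labels and under the shifted ones. VvVFL, the grapevine homologue of the Arabidopsis floral identity gene LEAFY, was counted in every library. VvTFL1A, a homologue of Arabidopsis TERMINAL FLOWER, which keeps meristems from turning into flowers, had at least 55 counts in the libraries of the 24 from BBCH63 and BBCH77, and 2 to 10 in those from BBCH90. In pools of whole buds, fewer cells of a type and less RNA per cell cannot be told apart.

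At flowering, ERF020 stood out in the basal buds. It had 33.7, 7.54 and 8.06 CPM (counts relative to the library total, scaled by the TMM method) in replicates 1, 2 and 3 of BBCH63 node 2. These came from 1255, 294 and 317 counts. In node 5 it had 1.50, 0.908 and 0.982 CPM, from 70, 36 and 48 counts, and in node 10 it had 1.34 and 1.33 CPM, from 61 and 62 counts. All 3 node 2 libraries lay above all 5 libraries of the other nodes, with no overlap. The lowest of them was 5.03 times, and the highest 22.5 times, the highest value of nodes 5 and 10. Replicate 1 stood far above the other node 2 libraries, which were close to each other. Of all genes tested, 13.8% had their 3 node 2 libraries above the other nodes at this stage, and since the gene was chosen on this contrast nothing is read from that share.

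At BBCH77 the signal was present in only part of the node 2 libraries. ERF020 had 19.9, 7.69 and 0.683 CPM in replicates 1, 2 and 3 of node 2, from 741, 290 and 29 counts. The 29 counts of replicate 3 have an exact 95% Poisson interval of 19.4 to 41.6 counts, which covers counting error only. In node 5 the gene had 2.11, 0.537 and 1.67 CPM, from 103, 32 and 97 counts, and in node 10 it had 2.28 and 1.25 CPM, from 111 and 60 counts. Replicates 1 and 2 of node 2 were 8.74 and 3.37 times the highest value of the other nodes. Replicate 3 lacked the signal, since it lay above 1 of the 5 libraries from nodes 5 and 10 and was 0.299 times their highest value. Across the 3000 most variable genes this library had a correlation of 0.16 with the other libraries of its labelled group and of 0.88 with BBCH77 node 5. Among all genes, 4.12% had all 3 node 2 libraries on top at this stage, and ERF020 is not one of them.

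At harvest, ERF020 was again high in replicates 1 and 2 of node 2. The 3 node 2 libraries had 31.6, 6.39 and 2.23 CPM, from 1024, 228 and 84 counts. The node 5 libraries had 1.24, 0.563 and 0.175 CPM, from 50, 21 and 6 counts, and the node 10 libraries had 3.15 and 1.12 CPM, from 104 and 41 counts. Replicate 3 of node 2 lay above 4 of the 5 libraries from the other nodes and below replicate 1 of node 10. It was 1.98 times the median of nodes 5 and 10, a smaller excess than the 28.2 and 5.70 times of replicates 1 and 2. The lowest value of the data, in node 5 replicate 3, rests on 6 counts, with an exact 95% Poisson interval of 2.20 to 13.1 counts. At this stage 2.51% of all genes had their 3 node 2 libraries above the others.

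**Figure D1:**
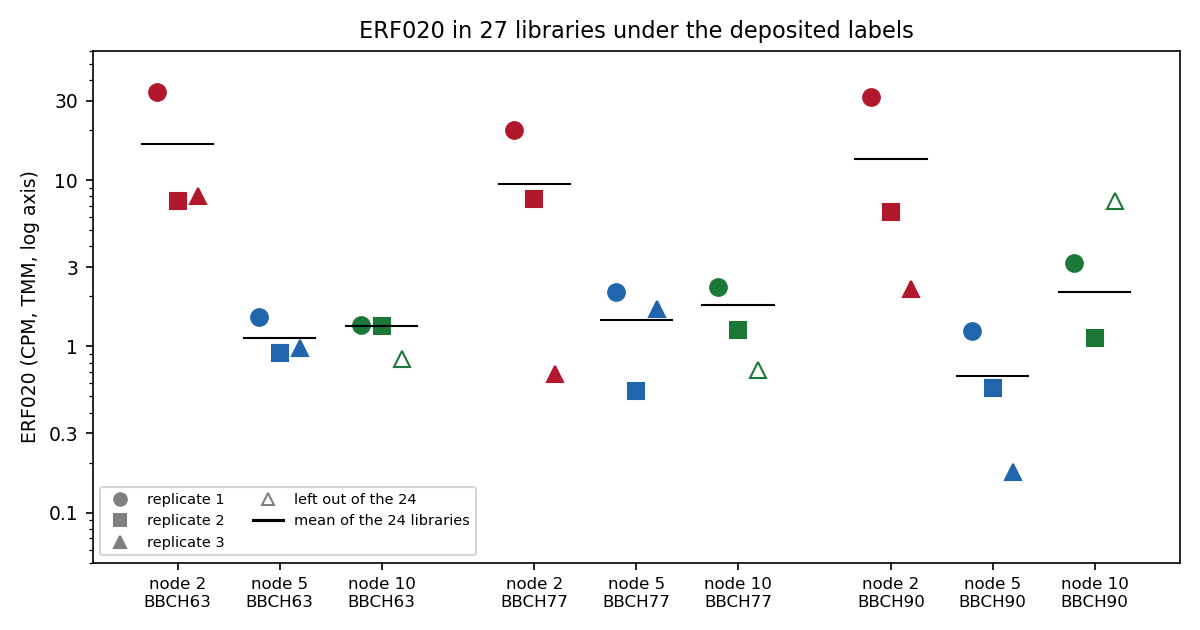
ERF020 in each library (points, CPM after TMM scaling, log axis) by node and stage under the deposited labels, with the mean of the 24 libraries as a bar and the 3 left-out libraries as open triangles. Replicates 1 and 2 of node 2 lie above the filled points of nodes 5 and 10 at each stage, while replicate 3 does so at BBCH63 only, with 0.683 CPM at BBCH77 and 2.23 CPM at BBCH90.

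Over the 3 stages, 7 of 9 node 2 libraries had more ERF020 than every library of nodes 5 and 10 of their stage. Of the 22999 genes tested, 2.17% reached 7 or more, and as the gene was chosen on this contrast the count is only set beside that share. The 2 node 2 libraries without the full signal were both numbered 3. In the 24 libraries, replicate 1 had the highest ERF020 of its group in 9 of 9 groups, also at nodes 5 and 10. The node 10 groups had only 2 libraries each. At BBCH63 node 10 the values were nearly equal, with 1.34 and 1.33 CPM from 61 and 62 counts in replicates 1 and 2. Only 19 of the genes tested, or 0.0826%, had replicate 1 highest in every group, and the median gene had it highest in 4. The labels do not say what the replicate numbers share. The 100 most abundant genes took 13.05% of the counts in replicate 1 of BBCH63 node 2 and 16.03% in that of BBCH77 node 2, the highest shares of the 8 libraries compared at each of these stages. In replicate 1 of BBCH90 node 2 they took 16.1%, the lowest share of its stage. The part of these differences in the level of ERF020 was not tested.

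Measured against the qPCR reference gene UBC28, which encodes a ubiquitin-conjugating enzyme, the same libraries stood out. Per 1000 counts of UBC28, ERF020 had 251, 58.1 and 61.0 counts in BBCH63 node 2, against 5.29 to 12.0 in nodes 5 and 10. BBCH77 node 2 had 143, 59.2 and 5.69, against 4.50 to 21.2 in the other nodes. BBCH90 node 2 had 177, 29.0 and 8.43, against 0.578 to 12.7. Replicate 3 thus stayed within the range of nodes 5 and 10 at the later stages on this scale too. UBC28 itself had log2 fold changes of 0.77, 1.17 and 1.10 for BBCH90 vs BBCH77 at nodes 2, 5 and 10. Ratios to it can therefore not be compared between these stages. UBC28 also varied within a group, with 178, 221 and 264 CPM in replicates 1, 2 and 3 of BBCH90 node 2. There the ratio sets replicate 1 further above replicate 3 than CPM does.

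By group, the mean CPM ± SD was 16.4 ± 14.96 for BBCH63 node 2, 13.4 ± 15.9 for BBCH90 node 2 and 9.44 ± 9.75 for BBCH77 node 2 (n = 3 each). The node 10 groups followed with 2.14 ± 1.44 at BBCH90 and 1.77 ± 0.731 at BBCH77 (n = 2 each). Then came BBCH77 node 5 with 1.44 ± 0.813 (n = 3), BBCH63 node 10 with 1.33 ± 0.00938 (n = 2), BBCH63 node 5 with 1.13 ± 0.321 (n = 3) and BBCH90 node 5 with 0.659 ± 0.539 (n = 3). The 3 node 2 groups headed the order. No step between neighbours in this order exceeded the larger of their SDs, also not the step of 7.30 CPM between BBCH77 node 2 and BBCH90 node 10. The mean of node 2 was 13.4 times the mean of nodes 5 and 10 at BBCH63, 5.89 times at BBCH77 and 9.58 times at BBCH90.

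In the edgeR fit over all 9 groups, the log2 fold change of node 2 over the mean of nodes 5 and 10 was 3.74 (SE 0.89) at BBCH63, 2.56 (SE 0.86) at BBCH77 and 3.48 (SE 0.89) at BBCH90. Ordered from the largest rise in node 2 downward, ERF020 ranked 97, 285 and 29 among the 22999 genes at these stages. As the gene was chosen on this contrast, nothing is read from these ranks. Against node 5 alone the values were 3.86, 2.72 and 4.31, and against node 10 alone they were 3.62, 2.41 and 2.65. The gene's dispersion was 0.602, against a common dispersion of 0.0483, the value for all genes together. Replicate 1 of node 2 carried a large part of the difference. Without it the log2 fold change was 2.66 at BBCH63, 1.39 at BBCH77 and 1.85 at BBCH90, and node 2 averaged 6.34, 2.61 and 3.08 times the other nodes. Without replicate 3 of node 2 the change was 3.12 at BBCH77 and 3.98 at BBCH90. Whether the difference between node 2 and the other nodes varies with the stage was not tested.

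**Figure D2:**
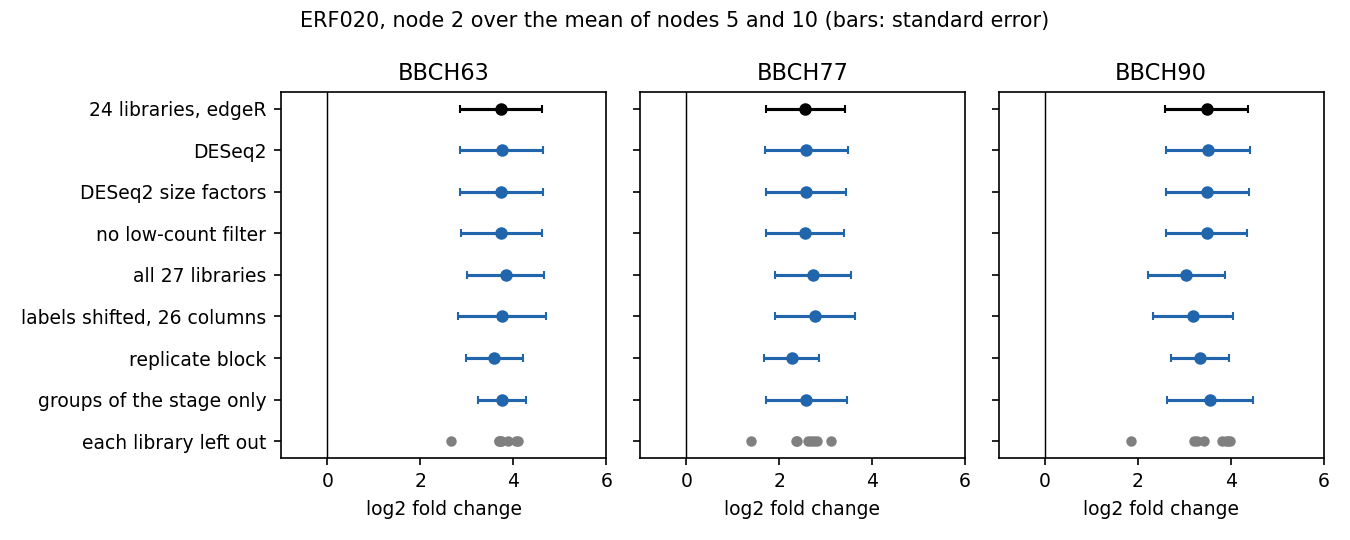
Log2 fold change of ERF020 in node 2 over the mean of nodes 5 and 10 at each stage (x axis), for each way of fitting the counts (rows), with bars for the standard error and grey points for fits that leave out 1 library. Every value is above 0, and the lowest ones, 2.66, 1.39 and 1.85, are those without replicate 1 of node 2.

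With each column from BBCH63 node 5 replicate 1 on given the label of the next, the number of node 2 libraries with the full signal was the same, but not the libraries that lacked it. BBCH63 node 2 keeps its columns. BBCH77 node 2 then consists of the libraries deposited as BBCH63 node 10 replicate 3, with 0.842 CPM, and as replicates 1 and 2 of BBCH77 node 2, with 19.9 and 7.69 CPM. BBCH90 node 2 consists of the library deposited as BBCH77 node 10 replicate 3, with 0.725 CPM, and of replicates 1 and 2 of BBCH90 node 2, with 31.6 and 6.39 CPM. Both libraries deposited as replicate 3 of node 2 without the full signal then fall in node 5, at 0.683 and 2.23 CPM.

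Under these labels 7 of 9 node 2 libraries were again above every library of nodes 5 and 10 of their stage, a count reached by 2.55% of 23040 genes. The 2 exceptions were the libraries that took the place of replicate 1 at BBCH77 and BBCH90, each above 2 of 6 libraries from the other nodes. Both are among the 3 that the study left out of its comparisons. The shift thus exchanged 2 low libraries for 2 other low ones. Across the 3000 most variable genes, the new one at BBCH77 had a correlation of 0.48 with its shifted group, the lowest of the 26 columns. The new one at BBCH90 had 0.86. Replicate 2 was then the highest of its group in 7 groups and replicate 1 in 2.

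The group means under the shifted labels were 16.4 ± 14.96, 9.49 ± 9.67 and 12.9 ± 16.4 CPM for node 2 at BBCH63, BBCH77 and BBCH90 (SD, n = 3 each). Node 5 had 1.20 ± 0.417 (n = 2), 1.11 ± 0.869 and 1.34 ± 0.837 CPM (n = 3 each), and node 10 had 1.22 ± 0.202, 1.74 ± 0.520 and 1.48 ± 1.52 CPM (n = 3 each). The log2 fold change of node 2 over nodes 5 and 10 was 3.76 (SE 0.95), 2.77 (SE 0.86) and 3.19 (SE 0.87). The libraries deposited as replicates 1 and 2 of node 2 stay in node 2 at each stage under the shift. Nearness to the values under the deposited labels is therefore no separate result.

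**Figure D3:**
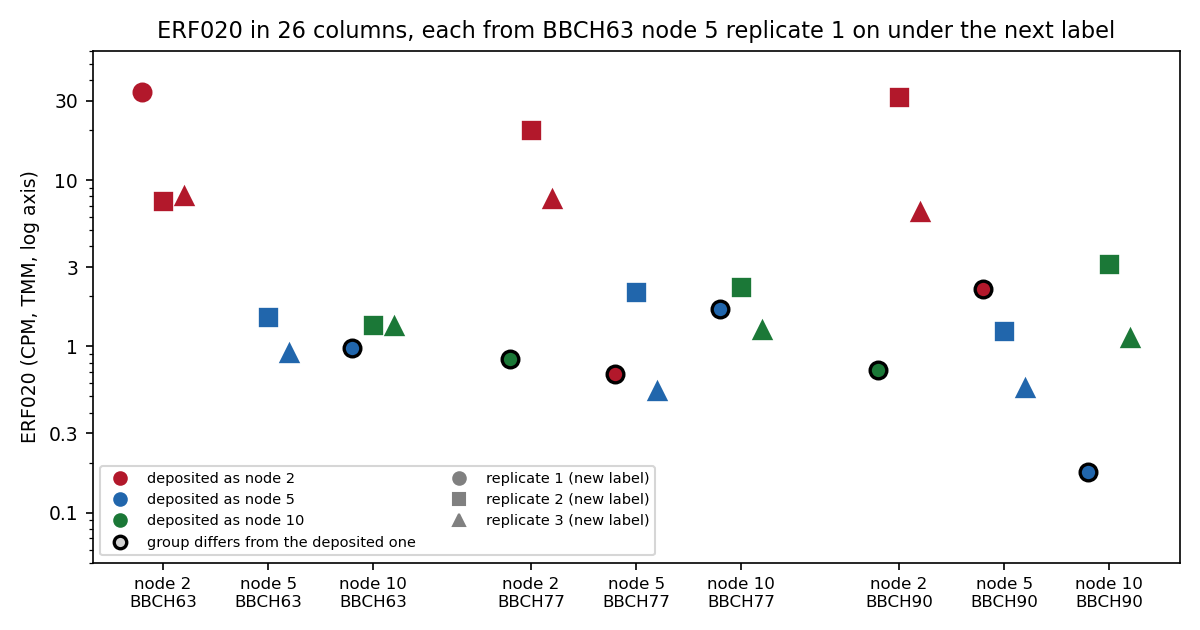
ERF020 (CPM after TMM scaling, log axis) in 26 columns by node and stage when each column from BBCH63 node 5 replicate 1 on takes the label of the next, with colours for the deposited node and black rims for columns that change group. The low points of node 2 are now the 2 columns deposited as node 10, at 0.842 and 0.725 CPM, and the 2 deposited as node 2 with 0.683 and 2.23 CPM stand in node 5.

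The change of ERF020 between stages asks whether the gene follows the passage of the bud from flowering to harvest. The choice of the gene did not use this change itself. It did use the same libraries at each stage, so these tests are not independent of the choice. No step was called at an adjusted p under 0.05 with at least a 2-fold change. In node 2 the log2 fold change was -0.80 (SE 0.93) for BBCH77 vs BBCH63 and 0.51 (SE 0.93) for BBCH90 vs BBCH77, with adjusted p of 0.582 and 0.647 in edgeR's quasi-likelihood test. In node 5 it was 0.34 (SE 1.02) and -1.09 (SE 1.09), with edgeR adjusted p of 0.842 and 0.396. In node 10 it was 0.41 (SE 1.24) and 0.27 (SE 1.23), with edgeR adjusted p of 0.850 and 0.866. The tests of BBCH77 vs BBCH63 called 8.85%, 8.61% and 9.62% of all genes at nodes 2, 5 and 10, and those of BBCH90 vs BBCH77 called 34.4%, 32.5% and 33.9%. With SEs of 0.93 to 1.24 on the log2 scale, a 2-fold change of this gene was not detectable at this spread. Without replicate 1 of BBCH63 node 2 the first step in node 2 had the opposite sign, at 0.27. The second step in node 2 was -1.13 without replicate 1 of BBCH90 node 2 and -0.04 without replicate 3 of BBCH77 node 2. None of these was called.

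ERF020 did not pass the test between the distal and the middle node either. The values of both nodes entered the choice of the gene, so this test is not independent of it. The log2 fold change of node 10 over node 5 was 0.23 (SE 1.15) at BBCH63, 0.30 (SE 1.11) at BBCH77 and 1.66 (SE 1.18) at BBCH90, with edgeR adjusted p of 0.963, 1 and 0.723. In this comparison edgeR called 0 genes, or 0%, at each stage, with 2479, 785 and 2088 genes at an unadjusted p under 0.05, and DESeq2 called 105, 1 and 153. At BBCH90 the node 10 libraries had 3.15 and 1.12 CPM and those of node 5 had 1.24, 0.563 and 0.175 CPM, so the groups overlapped. The fold change of 1.66 was 0.74 without replicate 1 of node 10 and 2.50 without replicate 1 of node 5.

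**Figure D4:**
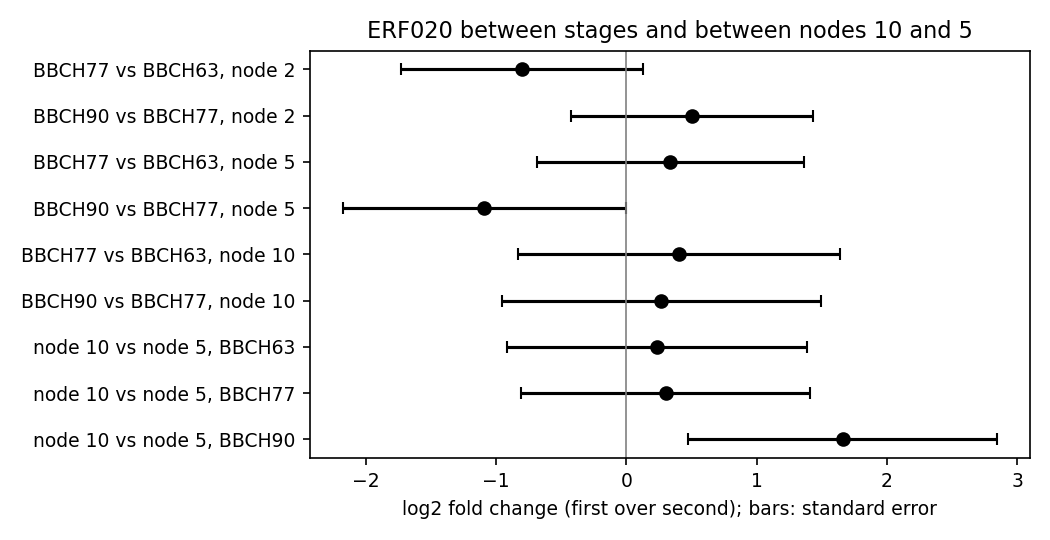
Log2 fold change of ERF020 (points) with its standard error (bars) between stages within a node and between node 10 and node 5 within a stage, from edgeR over 24 libraries. None of the 9 values passed the test, and the largest in size are 1.66 for node 10 vs node 5 at BBCH90 and -1.09 for BBCH90 vs BBCH77 in node 5.

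The study lists ERF020 with 5 other genes that were lower at node 5 than at node 2 at every stage. That list was chosen on these same samples, so its direction between nodes is no independent evidence. It holds endochitinase EP3 (VITVI05G02251), a chitin-degrading enzyme, a cation/H+ antiporter 15-like protein (VITVI06G00739), which belongs to a family of ion exchangers, a MACPF domain-containing protein CAD1 (VITVI10G00657), wound-induced protein 1 (VITVI13G00131) and a hypothetical protein (VITVI16G01643). CAD1 is known in Arabidopsis as a negative regulator of cell death and immune responses. The median log2 fold change of these 5 genes in node 2 over nodes 5 and 10 was 1.49, 1.51 and 2.05 at BBCH63, BBCH77 and BBCH90, beside medians of -0.01, -0.02 and -0.03 over all genes tested. ERF020 had 3.74 (SE 0.89) and 2.56 (SE 0.86) at the first stages. The highest of the other 5 there was endochitinase EP3, with 2.21 and 1.92 (SE 0.64 each). At BBCH90 the antiporter had 3.72 and ERF020 3.48. Whether the genes differ in this change was not tested.

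The library in which ERF020 lacked the signal, BBCH77 node 2 replicate 3, had the lowest value of its group for each of these genes, but its place among nodes 5 and 10 varied. Of the 9 node 2 libraries, 8 lay above all libraries of the other nodes for endochitinase EP3, the antiporter, wound-induced protein 1 and the hypothetical protein, and each of these had 2 of 3 at BBCH77. Replicate 3 of BBCH77 node 2 lay above 4 of the 5 libraries of the other nodes for endochitinase EP3 and the hypothetical protein, above 2 for the antiporter and above 1 for wound-induced protein 1, as for ERF020. The MACPF protein had 9 of 9, with 202, 116 and 61.6 CPM in replicates 1, 2 and 3 of BBCH77 node 2, against 41.9 to 61.2 CPM in nodes 5 and 10. Under the shifted labels the 5 genes had 7 or 8 of 9. At BBCH90 each of the 5 had all 3 node 2 libraries on top, for endochitinase EP3 by a margin of only 42.63 CPM in node 2 replicate 3 against 42.56 CPM in node 10 replicate 1, and whether they differ from ERF020 in this was not tested.

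Between stages, none of the 5 genes was called for BBCH77 vs BBCH63 at any node. For BBCH90 vs BBCH77, 2 of 5 were called lower at node 2, 3 at node 5 and 4 at node 10, and 0 were called higher. Of all genes tested, 23.5%, 22.5% and 22.9% were called lower and 10.9%, 9.98% and 11% higher at these nodes. Wound-induced protein 1 fell at each node, with log2 fold changes of -1.31 (SE 0.41) at node 2, -1.88 (SE 0.42) at node 5 and -1.68 (SE 0.51) at node 10, and edgeR adjusted p of 0.00995, 0.000832 and 0.00930. Endochitinase EP3 also fell at each node, by 1.71, 2.28 and 2.34 on the log2 scale, with edgeR adjusted p of 0.0499, 0.0141 and 0.0380. The MACPF protein passed the test at no node, and had log2 fold changes of 0.24, 0.21 and 0.51. ERF020 was not called at this step, and whether it differs from the other genes there was not tested. Of these 9 calls, only that of wound-induced protein 1 at node 5 was kept with each library left out in turn, at adjusted p of 0.0016 to 0.00656, and under every other alternative run. The 8 others were all lost with all 27 columns, and both calls at node 2 also with only the groups compared in the fit, at adjusted p of 0.198 and 0.110. That of endochitinase EP3 at node 2 was lost without the low-count filter too, at 0.0550. The calls at node 10 were lost without replicate 1 of BBCH77 node 10 or replicate 2 of BBCH90 node 10, those of endochitinase EP3 and the antiporter also without replicate 1 of BBCH90 node 10, and both calls at node 2 without replicate 1 of BBCH77 node 2 or replicate 2 or 3 of BBCH90 node 2. The call of the hypothetical protein at node 5 was lost without replicate 1 or 3 of BBCH77 node 5 or replicate 2 or 3 of BBCH90 node 5, and that of endochitinase EP3 there without either of the last 2. Under the shifted labels the calls of endochitinase EP3 at nodes 2 and 5, with adjusted p of 0.119 and 0.0843, and that of the hypothetical protein at node 5, with 0.169, were lost.

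The genes with the pattern most like that of ERF020 were found by the Pearson correlation of log2 CPM over the 24 libraries, all of which share their library, depth and labels with ERF020. As they were chosen on these libraries, high or low libraries shared with ERF020 belong to the choice and are no separate result. The closest were VITVI14G00193 with r = 0.917, VITVI06G00740 with 0.914, VITVI12G04645 with 0.899, VITVI12G02174 with 0.896 and VITVI16G01926 with 0.894. Over 22998 genes the median r was -0.03, and 2 genes had an r over 0.9. The order depended on the libraries used. Over the 26 distinct libraries the 5 genes named above had r = 0.813, 0.851, 0.896, 0.888 and 0.845, at ranks 62, 12, 1, 2 and 16. These genes carry no names in the sources used here. VITVI14G00193 had 75.4, 35.1 and 34.6 CPM in BBCH63 node 2, 105, 38.0 and 14.1 CPM in BBCH77 node 2 and 154, 29.9 and 15.5 CPM in BBCH90 node 2. Its node 5 and node 10 libraries had 11.2 to 28.9, 11.3 to 35.3 and 3.39 to 18.2 CPM at these stages, so the same 2 libraries numbered 3 fell in the range of the other nodes. VITVI06G00740 bears the ID next to that of the antiporter VITVI06G00739. It had 0.612 CPM in BBCH77 node 2 replicate 3, against 9.64 and 3.29 CPM in replicates 1 and 2.

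After each stage was centred on its own mean, which removes the change between stages, the closest genes were VITVI08G01194 with r = 0.963, endochitinase EP3 (VITVI05G02251) with 0.959, VITVI09G04150 with 0.957, VITVI04G01748 with 0.950 and VITVI19G00528 with 0.946. Without centring these 5 had r = 0.858, 0.805, 0.834, 0.516 and 0.647 over the 24 libraries. Wound-induced protein 1 ranked 7 after centring, with 0.944. In the centred measure 78 of 22998 genes had an r over 0.9. Endochitinase EP3 had 691, 228 and 258 CPM in BBCH63 node 2, 1061, 358 and 144 CPM in BBCH77 node 2 and 355, 79.2 and 42.6 CPM in BBCH90 node 2, where replicate 1 was again the highest. VITVI19G00528, chosen for its likeness to ERF020 in these libraries, also had replicate 1 highest in 9 of 9 groups. Of the other genes on the lists used here, ALP1-like (VITVI11G00140) had r = 0.761 with ERF020 over the 24 libraries and 0.791 after centring. COL4, UBC28, the bud markers VvVFL, VvTFL1A and VvSOC1 and the 3 dormancy-associated genes had -0.56 to 0.10 without centring. After centring they had -0.71, for VvSOC1, to 0.01, for VvTFL1A.

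**Figure D5:**
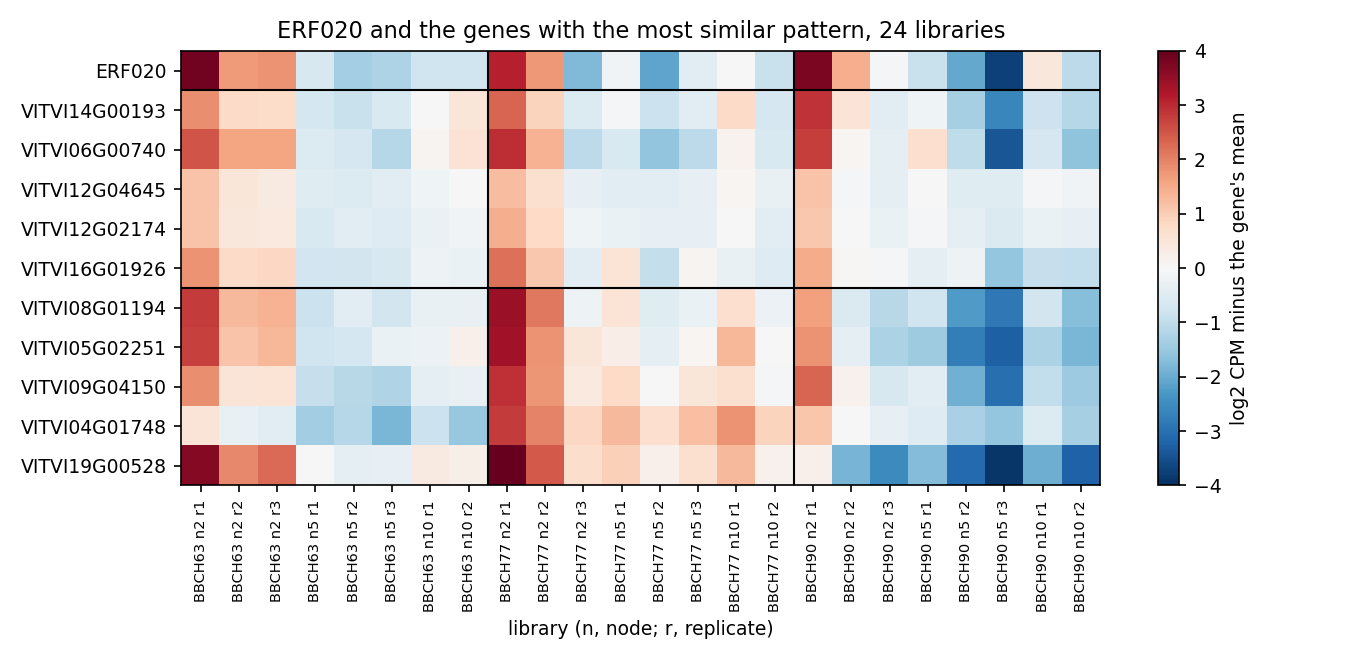
Log2 CPM of ERF020 and of the 10 genes with the most similar pattern (rows, each minus its own mean) in the 24 libraries (columns), with the 5 closest over all libraries in the middle block and the 5 closest after centring each stage in the lower block. Replicate 1 of node 2 has the highest value of its stage in each row, and BBCH77 node 2 replicate 3 is lower than replicates 1 and 2 in each row, as for ERF020 with 0.683 CPM there. The genes were chosen for their correlation with ERF020 in these libraries, so this likeness belongs to the choice.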

How the data were processed

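RNA-Seq counts of 27 libraries were used. The authors trimmed adaptors, mapped reads to PN40024.v4 and deposited raw counts of reads per gene, without normalization. The labels name a stranded mRNA library kit, and the submitters' processing notes name FastQC, HISAT2 and HTSeq; their versions are not given in the sources used here. Totals were 34531620 to 53307172 counts per library.

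The gene, the lists and the tests were chosen with earlier results of these data known. Genes passing filterByExpr (minimum count 10) were kept, leaving 22999, scaled by TMM and fitted in edgeR 4.0.16 (R 4.3.3) with 1 mean per group over 24 libraries. A call needed an adjusted p (Benjamini-Hochberg over all genes tested, quasi-likelihood test) under 0.05 and a 2-fold change. Each SE was taken from the fold change and F, as |log2 fold change|/√F. The left-out libraries were scaled over all 27. For the shifted labels the last column was dropped, leaving 26 columns and 2 libraries in BBCH63 node 5. Likeness is Pearson r of log2 CPM with a prior count of 2; the 5 highest of each kind were named, beside the genes of the study's list, its qPCR genes and the bud and dormancy markers. On simulated data of 22507 genes, edgeR recovered 90.5% of 200 genes changed 4-fold in node 10 vs node 5 at BBCH63, and 35.5% of those changed 2-fold among 22531 genes. The changed genes were drawn at random and kept their own dispersions. ERF020 has a dispersion of 0.602 against a common one of 0.0483, so these rates do not hold for it.

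Alternatives were DESeq2 1.42.0, edgeR with DESeq2's size factors, all genes kept whatever their counts, all 27 libraries, shifted labels, a replicate block, only the groups compared, a limit of 0.01, and each library left out. Separate replicates are separate pools of buds. Ethylene pathway genes, promoters and the protein sequence were not analysed here.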

Additional observations from a re-analysis of the deposited data

Results flagged for a closer look

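ERF020 had 7.53 CPM in the library labelled BBCH90 node 10 replicate 3, which no comparison of the 24 libraries used. This is above the 3.15 and 1.12 CPM of the other BBCH90 node 10 libraries, and it stood out as a signal in a column outside the main comparisons. The column holds the same counts as BBCH63 node 2 replicate 2 at all 35134 genes, ERF020 with 294 counts included, so it gives no separate value for BBCH90 node 10.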

How the results depend on the processing

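ERF020 was higher in node 2 than in nodes 5 and 10 at each stage under every alternative run, and no step between stages and no difference between nodes 10 and 5 was called under any of them, with a lowest adjusted p of 0.118 for BBCH90 vs BBCH77 in node 5 with the replicate block. The direction of uncalled changes was less stable. With all 27 columns, which count BBCH63 node 2 replicate 2 again as BBCH90 node 10 replicate 3, node 10 vs node 5 at BBCH77 was -0.016 (log2). In that fit a called change also turned its sign, that of the antiporter VITVI06G00739 for BBCH90 vs BBCH77 in node 10, at 0.55 against -3.16 over the 24 libraries. With shifted labels, node 5 had -0.13 for BBCH77 vs BBCH63 and 0.28 for BBCH90 vs BBCH77, and node 10 had -0.23 for BBCH90 vs BBCH77. With the replicate block, node 10 vs node 5 was -0.13 at BBCH63 and -0.28 at BBCH77. In 15 comparisons under the deposited labels, the correlation of same-numbered libraries ranged from -0.17 to 0.41. In 0 of the 7 comparisons with 3 pairs was every one over 0.1. The replicate numbers change under the shifted labels, so whether they pair the samples was not settled by this check. The block changed no call of ERF020. The causes were not tested.

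With each library left out, the change in node 2 vs nodes 5 and 10 ranged from 2.66 to 4.10 at BBCH63, 1.39 to 3.12 at BBCH77 and 1.85 to 3.98 at BBCH90, and the ratio of the means from 6.34 to 17.0, 2.61 to 8.62 and 3.08 to 15.05. BBCH77 vs BBCH63 ranged from -1.98 to 0.27 in node 2, -0.028 to 0.74 in node 5 and -0.094 to 0.78 in node 10. BBCH90 vs BBCH77 ranged from -1.13 to 1.68, -1.93 to -0.66 and -0.66 to 0.83 in these nodes. Node 10 vs node 5 ranged from 0.11 to 0.50 at BBCH63, -0.20 to 0.67 at BBCH77 and 0.74 to 2.50 at BBCH90. BBCH90 vs BBCH77 of VITVI06G00739 ranged from -1.86 to 1.002 in node 2, and that of VITVI10G00657 from -0.23 to 0.75 in node 2 and from -0.0040 to 0.36 in node 5.

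The counts of genes called also moved. Node 10 vs node 5 gave 0 genes at each stage, against 105, 1 and 153 in DESeq2, 43, 0 and 12 with shifted labels and 3, 0 and 0 with the block. BBCH77 vs BBCH63 gave 2036, 1981 and 2212 genes at nodes 2, 5 and 10, against 1257, 1277 and 1133 at an adjusted p under 0.01 and 474, 590 and 1 with all 27 columns. BBCH90 vs BBCH77 in node 10 gave 7799 genes, against 0 with all 27 columns.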
